A study of Mus musculus with 6 samples.

Results

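The genes of ribosome production were followed in HT22 cells, an immortalised mouse hippocampal line, after 16 h with AA147 or with its vehicle. AA147, a small molecule, is used to switch on ATF6, a branch of the response to unfolded proteins, and it also acts on the oxidative stress regulator NRF2. The AA147 group had 3 libraries, from cultures given the compound at a concentration the labels state as 10 mM, and the vehicle group had 3 libraries from cultures given DMSO. Both groups shared the line, the 12-well format, the medium with serum and the collection time, and the labels do not say whether the 3 libraries of a group came from separate cultures, so p-values may measure technical spread only. The members were taken from the gene symbols alone: the Nop, Utp, Rrp, Nol and Polr1 series and 16 further nucleolar genes, among them Fbl, Npm1 and Ncl. This found 54 of the 16472 genes in the authors' deposited table.

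The ribosome is built in the nucleolus. RNA polymerase I transcribes a long precursor RNA, which small nucleolar ribonucleoproteins (snoRNPs) modify and which the small subunit processome and the large subunit assembly factors fold, cut and join with ribosomal proteins. In dividing cells this is a main use of energy, and its genes are well known targets of the growth regulator MYC, which binds the E-box sequence in promoters.

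Of the 54 genes, 52 are nucleolar by role. The other 2, Nol3 and Nol4l, share only the name: Nol3 is known as an inhibitor of cell death. Nol3 had a mean of 8.68 and Nol4l one of 4.43 normalized counts in the authors' deposited table, and Nol4l had no adjusted p. The 52 nucleolar members had means from 249 to 39440, with a median of 3279 against 430 for the whole table. Several known members were present only under an older name and so fell outside the rule, namely Utp4 as Cirh1a and Nop53 as Gltscr2, while Utp11 was found as Utp11l.

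The deposited file has 1 row for each gene and nothing for a single library, so the replicate spread enters only through the standard error (SE) of the log2 fold change. The numerator of the fold change is not named in the table. A positive value is read as higher with AA147, and every direction below reverses if the table is vehicle over AA147. A gene is called when its adjusted p, from the authors' DESeq2 test with Benjamini-Hochberg adjustment, is under 0.05. As a check of the cell label, 4 of 12 neuronal markers were listed in the authors' deposited table, while Map2, Rbfox3, Snap25 and Syt1, among others, were not. Tubb3 had a mean of 1199 normalized counts, but Eno2 had only 62.1, Stmn2 6.24 and Slc17a7 3.93. All 8 mesenchymal markers were listed, up to a mean of 254004 for Col1a2. These markers moved between the groups: 4 of the 8 were called negative in the authors' deposited table, Col1a1 at -1.52, Col3a1 at -1.11, and Col1a2 and Pdgfrb both at -0.97, and 0 were called positive. Fn1, Vim, Thy1 and Acta2, from -0.11 to 0.01, were not called. Of the 2 neuronal markers with an adjusted p, Tubb3 was called positive at 0.43 (adjusted p of 5.67e-05) and Eno2, at -0.30, was not called. Stmn2 and Slc17a7, near the floor, lay at -1.53 and -1.98 without an adjusted p. The part of these shifts in the values of the nucleolar members was not tested. The glial and the blood and endothelial markers listed had means of at most 28.8. In a bulk sample, fewer cells of a type and less RNA per cell cannot be told apart.

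The nucleolar members found by the rule differed little between the groups. Some genes of ribosome production outside the rule, given below, had larger values, such as Sbds at 0.45 and Shq1 at -0.37. By the authors' deposited table, Imp4, Nol8 and Utp6 were called positive and Nop10 and Tcof1 negative, 3 members and 2. That is 9.43% of the 53 members with an adjusted p, where 20.2% of the 13597 genes tested were called. Positive calls made up 5.66% of the members and 9.05% of all genes, and negative calls 3.77% of the members and 11.1% of all genes. Among the 9332 genes within the same range of means as the nucleolar members, 25.1% were called, 11.4% positive and 13.6% negative. These genes were not matched in expression: their median mean was 1436, beside 3279 for the nucleolar members. The difference between these shares was not tested. At an unadjusted p under 0.05 stood 13 nucleolar members, 25% of them, and 30.6% of all genes tested.

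The size of the changes was small in all nucleolar members. The log2 fold changes of the 52 nucleolar members ran from -0.21 to 0.24 in the authors' deposited table, 24 positive and 28 negative, with a median of -0.02. The median over all genes tested was 0.01. The median absolute log2 fold change was 0.083 for these members, 0.130 for genes in the same range of means and 0.159 for all genes tested. No nucleolar member reached an absolute value of 0.5, a size that 4.66% of the genes in the same range of means reached. With the median SE of 0.073, a member needed a fold change of about 0.19 on the log2 scale to be called, and the need ran from 0.15 for the most precise to 0.38 for the least precise member.

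**Figure D1:**
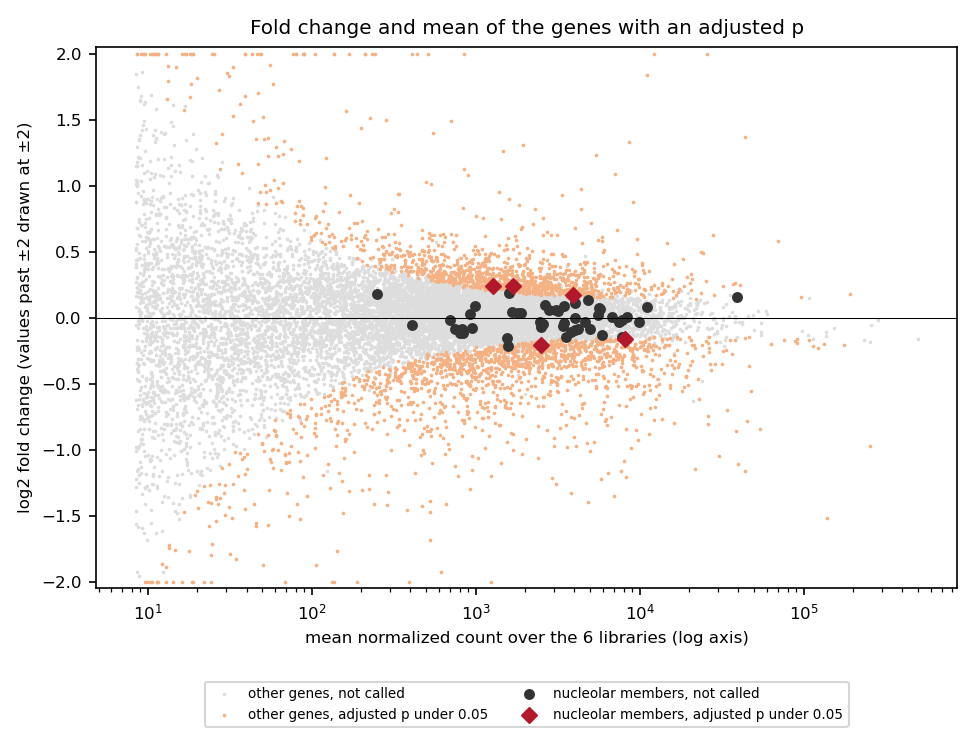
Log2 fold change against the mean normalized count over the 6 libraries (log axis) for the genes with an adjusted p, from the authors' deposited table. The 47 nucleolar members that were not called (dark points) and the 5 that were (red diamonds) lie between -0.21 and 0.24. Of the 52, 34 lie within 0.1 of 0.

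The intervals set a bound on what could have been missed. The 95% interval of the log2 fold change lay wholly between -0.3 and 0.3 for 44 of the 52 nucleolar members, 84.6%. The same held for 46.7% of genes in the same range of means, a limit chosen after the values were seen. Those genes share the range only: their median SE was 0.086, beside 0.073 for the nucleolar members. The part of this in the contrast was not tested. The interval reaching farthest down was that of Imp3, to -0.38, and the one reaching farthest up that of Utp14b, to 0.47. Well expressed genes have narrower intervals. Among members with a mean from 1000 to 5000, the median SE of 0.073 was close to the 0.078 of all genes in that class, and 4 of 28 members were called, 14.3%, beside 26.1% of all genes. Among those with a mean of at least 5000, 1 of 14 was called, 7.14%, beside 36.7% of genes from 5000 to 50000. Of the 10 members with a mean under 1000, 0 were called by the authors' DESeq2 test, beside 18.1% of genes from 100 to 1000. An unadjusted p under 0.05 was held by 0 of these 10, and by 30.6% of all genes tested.

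**Figure D2:**
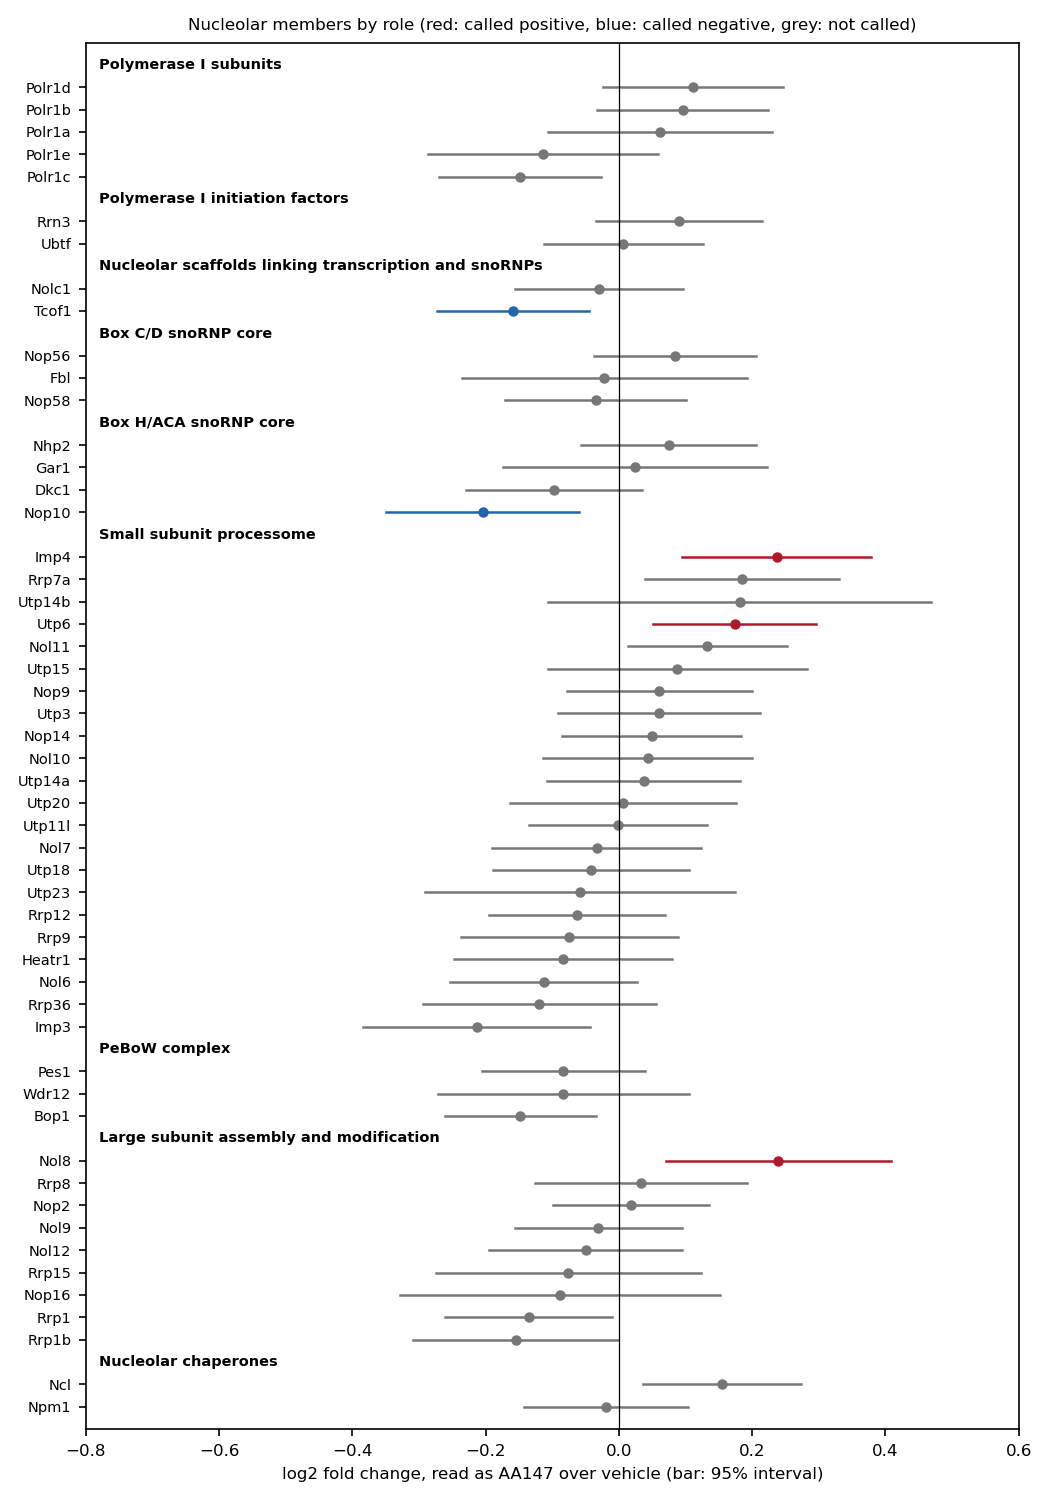
Log2 fold change (points) with its 95% interval (bars) for the 52 nucleolar members, grouped by role, from the authors' deposited table. Red marks the 3 called positive, blue the 2 called negative and grey the 47 not called, and 39 of the 52 intervals include 0.

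RNA polymerase I was read first through the mRNA of its own subunits. The amount of precursor RNA, the proteins and the activity of the enzyme are not in these data. By DESeq2 in the authors' deposited table, 0 of 5 subunits were called, and 1, Polr1c, had an unadjusted p under 0.05. Over all genes tested these shares were 20.2% and 30.6%, and with 5 genes the difference cannot be read as particular to the enzyme. Polr1a, which encodes the largest, catalytic subunit, had a mean of 5767 normalized counts and a log2 fold change of 0.06 (SE of 0.086, adjusted p of 0.69) in the authors' deposited table. Polr1b, the second catalytic subunit, had a mean of 2664 with a fold change of 0.10 (SE of 0.065, adjusted p of 0.334) there. Both catalytic subunits thus had intervals that include 0, from -0.11 to 0.23 for Polr1a and from -0.03 to 0.22 for Polr1b.

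The subunits that polymerase I shares with polymerase III had opposite signs. Polr1c had a mean of 3569 with a fold change of -0.15 (SE of 0.062, adjusted p of 0.073) in the authors' deposited table, with an interval from -0.27 to -0.03. Polr1d had a mean of 4010 with a fold change of 0.11 (SE of 0.069, adjusted p of 0.278) there, with an interval from -0.02 to 0.25. Neither was called, although their intervals do not overlap. Exons of genes on the other strand cover 39.3% of the Polr1d transcript, and the libraries kept no strand, so its reads cannot be fully assigned. Polr1e, a polymerase I subunit with a role in initiation, had a mean of 838 with a fold change of -0.11 (SE of 0.088, adjusted p of 0.412) in the authors' deposited table.

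The factors that bring polymerase I to its promoter showed as little. Rrn3, the growth-regulated factor that makes the polymerase competent to initiate, had a mean of 3449 with a log2 fold change of 0.09 (SE of 0.064, adjusted p of 0.357) in the authors' deposited table. Ubtf, which binds along the ribosomal DNA, had a mean of 8423 with a fold change of 0.01 (SE of 0.061, adjusted p of 0.962), and its interval ran from -0.11 to 0.13. Tcof1, which encodes treacle, a nucleolar scaffold that takes part in ribosomal DNA transcription, was called negative in the authors' deposited table at -0.16 (SE of 0.058, adjusted p of 0.0356). At its mean of 8141 this fold change implies 7694 normalized counts in the AA147 and 8588 in the vehicle group, so that Tcof1 fell by 10.4%. Its partner scaffold Nolc1 had a mean of 9963 with a fold change of -0.03 (SE of 0.064, adjusted p of 0.811), and their intervals overlap.

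The snoRNPs carry the guide RNAs of rRNA modification. The box C/D class methylates ribose, and 0 of its 3 core members were called by DESeq2 in the authors' deposited table, with 0 at an unadjusted p under 0.05. Over all genes tested these shares were 20.2% and 30.6%, so 0 of 3 says little about the class. Fbl, the methyltransferase fibrillarin, had a mean of 698 with a log2 fold change of -0.02 (SE of 0.109, adjusted p of 0.929) in the authors' deposited table. A single other place in the genome matches 96% of the Fbl transcript at 95% identity or more, so the reads counted for Fbl are uncertain. Nop56 had a mean of 11014 with a fold change of 0.08 (SE of 0.062, adjusted p of 0.381) in the authors' deposited table, and Nop58 a mean of 7496 and one of -0.04 (SE of 0.069, adjusted p of 0.792). Both are scaffold proteins of the same particle, and their intervals overlap.

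The box H/ACA class makes pseudouridine, and 1 of its 4 core members was called, 25%, near the 20.2% of all genes tested. Nop10, the smallest protein of the particle, was called negative in the authors' deposited table at -0.20 (SE of 0.074, adjusted p of 0.0315). At a mean of 2485 this implies 2309 normalized counts with AA147 and 2661 with vehicle, so that Nop10 fell by 13.2%. The pseudouridine synthase Dkc1, dyskerin, had a mean of 4050 with a fold change of -0.10 (SE of 0.067, adjusted p of 0.343) in the authors' deposited table. Nhp2 lay at 0.07 (SE of 0.067, adjusted p of 0.494) with a mean of 5617, and Gar1 at 0.02 (SE of 0.101, adjusted p of 0.912) with a mean of 926. The interval of Nop10, from -0.35 to -0.06, does not overlap that of Nhp2, from -0.06 to 0.21, but only just.

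The small subunit processome is the large particle that forms on the 5′ part of the precursor and prepares the 18S rRNA. Of its 22 members in the authors' deposited table, 2 were called positive, 9.09%, and 0 negative. Over all genes tested these shares were 9.05% and 11.1%. An unadjusted p under 0.05 was held by 5 of the 22, and by 30.6% of all genes tested. The median log2 fold change of the 22 was 0.02. Imp4, a protein of the U3 snoRNP that helps to pair the U3 RNA with the precursor, was called positive at 0.24 (SE of 0.072, adjusted p of 0.00827) in the authors' deposited table. Its mean of 1692 and this fold change imply 1831 normalized counts with AA147 and 1554 with vehicle, an increase of 17.8%. This was the lowest adjusted p among the members. Utp6, part of the UTP-B module, was called positive at 0.17 (SE of 0.062, adjusted p of 0.0304) in the authors' deposited table. Its mean of 3941 implies 4178 with AA147 and 3704 with vehicle, an increase of 12.8%.

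Imp3, which acts in the same U3 complex as Imp4, lay on the other side of 0. Its fold change was -0.21 (SE of 0.087, adjusted p of 0.0644) at a mean of 1577 in the authors' deposited table, and it was not called. The interval of Imp3, from -0.38 to -0.04, and that of Imp4, from 0.10 to 0.38, do not overlap, and the difference between the pair was 0.45, with an interval from 0.23 to 0.67 when both values are taken as independent. Mphosph10, the third protein of that complex and outside the rule, lay at -0.01 (SE of 0.083, adjusted p of 0.956) in the authors' deposited table. Another place in the genome matches 98.5% of the Imp3 transcript, and a gene on the other strand overlaps 18.8% of it, so its count carries more doubt than that of Imp4, of which 3.58% is overlapped. In all, 16 pairs from the same complex, class or family were compared, chosen after the values were seen. The single intervals failed to overlap in 3 of them: Imp4 and Imp3, Nhp2 and Nop10, and Polr1d and Polr1c. In these 3 the interval of the difference lay above 0. It also did so for Polr1b and Polr1c (0.07 to 0.42) and for Utp6 and Utp18 (0.02 to 0.41). The same held for Nol11 and Heatr1 (0.01 to 0.42) and for Ncl and Npm1 (0.003 to 0.34). In the remaining pairs it included 0.

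The promoters of Imp4 and Imp3 are shown because these partners stood farthest apart, and those of Utp18, Nol11 and Rrn3 because among the members they hold the E-box nearest to the start on its upstream side. Each is the 250 bases before the annotated start, 5′ to 3′ on the gene's strand, from RefSeq on build GRCm38.p6, at chr1:34439579-34439828 (plus strand) for Imp4, chr9:56937250-56937499 (plus) for Imp3, chr11:93885767-93886016 (minus) for Utp18, chr11:107189382-107189631 (minus) for Nol11 and chr16:13780449-13780698 (plus) for Rrn3. Capitals mark the E-box CACGTG.
Imp4: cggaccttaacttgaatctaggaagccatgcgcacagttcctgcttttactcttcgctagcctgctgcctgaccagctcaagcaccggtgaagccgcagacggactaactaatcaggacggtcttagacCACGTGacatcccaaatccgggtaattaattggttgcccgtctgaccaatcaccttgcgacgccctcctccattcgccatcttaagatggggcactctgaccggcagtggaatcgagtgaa
Imp3: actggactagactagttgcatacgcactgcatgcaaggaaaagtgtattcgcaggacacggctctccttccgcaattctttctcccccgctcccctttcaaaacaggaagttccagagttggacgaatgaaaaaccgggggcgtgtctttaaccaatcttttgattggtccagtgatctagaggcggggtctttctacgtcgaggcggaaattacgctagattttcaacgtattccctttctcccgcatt
Utp18: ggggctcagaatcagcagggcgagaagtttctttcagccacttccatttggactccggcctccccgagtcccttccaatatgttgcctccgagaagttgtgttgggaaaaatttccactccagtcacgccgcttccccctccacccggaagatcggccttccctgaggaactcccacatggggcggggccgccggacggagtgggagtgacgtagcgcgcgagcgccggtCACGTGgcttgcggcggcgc
Nol11: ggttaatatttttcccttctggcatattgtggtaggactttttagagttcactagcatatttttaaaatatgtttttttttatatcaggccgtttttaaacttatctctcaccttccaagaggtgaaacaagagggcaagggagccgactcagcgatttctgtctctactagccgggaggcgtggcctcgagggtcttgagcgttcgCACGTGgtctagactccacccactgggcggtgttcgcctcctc
Rrn3: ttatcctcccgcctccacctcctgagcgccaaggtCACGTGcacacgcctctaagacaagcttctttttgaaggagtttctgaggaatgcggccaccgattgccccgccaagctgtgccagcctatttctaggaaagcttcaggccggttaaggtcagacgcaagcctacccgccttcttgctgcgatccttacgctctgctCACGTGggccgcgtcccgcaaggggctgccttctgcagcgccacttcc

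The E-box begins 121 bases before the start in Imp4, 20 bases before it in Utp18, 43 bases before it in Nol11 and 215 and 48 bases before it in Rrn3, and these letters are not in the Imp3 window. The members shown with an E-box had values of both signs in the authors' deposited table, from -0.04 for Utp18 to 0.24 for Imp4. In Pes1, at -0.08, and Utp20, at 0.01, the E-box lies just after the start, outside the bases printed. Nop2, at 0.02, and Rrp7a and Utp14b, both at 0.18, hold an E-box before the start and are not printed. RefSeq windows from 250 bases before to 50 after the start were matched for 43 of the 52 nucleolar members. Of these, 9 held CACGTG, 20.9%, beside 10.9% of the windows of genes in the same range of means and 7.24% of all windows with 1 per gene. The ETS letters CCGGAAG were in 34.9% of the members' windows and 21.2% of those in the same range of means, and the GC box GGGCGG in 65.1% and 68.8%. The antioxidant response element core TGACNNNGC was in 2 of the 43, 4.65%, beside 15%. The letters TGATGNAAN of the ATF4 site were also in 2 of the 43, 4.65%, beside 1.98%. Both strands were searched, and 1 pair of matches of different motifs overlapped in the members' windows. The 9 members with an E-box had a median log2 fold change of 0.09, from -0.08 to 0.24, and the 34 without one a median of -0.03, from -0.21 to 0.24, so the ranges overlap over most of their width. Of the 5 called members 3 had a window, and 1 of these, Imp4, held an E-box. These are descriptions of letters, with no test, and do not show that a factor was bound.

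Among the other members of the processome in the authors' deposited table, Rrp7a, needed for the early cuts of the precursor, had the positive value nearest to a call at 0.18 (SE of 0.075, adjusted p of 0.0611). Nol11, of the UTP-A module that also supports polymerase I transcription, lay at 0.13 (SE of 0.061, adjusted p of 0.109). Utp15 and Heatr1 belong to the same module, and the authors' deposited table gave them 0.09 and -0.08, with adjusted p of 0.611 and 0.551. That module thus held values of both signs. Utp18, of the same UTP-B module as Utp6, lay at -0.04 (adjusted p of 0.77), although exons on the other strand overlap 26% of its transcript.

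The remaining members of the processome were not called. Nop14, Utp14a, Utp3, Nop9, Nol10 and Utp20 lay between 0.01 and 0.06 in the authors' deposited table, with adjusted p from 0.621 to 0.976. Utp11l, Nol7, Utp23, Rrp12, Rrp9, Nol6 and Rrp36 lay between -0.12 and 0.00, with adjusted p from 0.29 to 0.992. Of these, Rrp9 binds the U3 RNA, Nol6 works with Rrp7a, and Rrp12 takes part in the export of the small subunit precursor. Utp14b, a copy of Utp14a known from male germ cells, had the lowest mean of the nucleolar members at 249 normalized counts and a fold change of 0.18 (SE of 0.147, adjusted p of 0.439) in the authors' deposited table. Its transcript shares 6.07% of its bases with exons of Acsl3 and another gene.

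On the large subunit side, the PeBoW complex of Pes1, Bop1 and Wdr12 is needed to process the precursor of the 28S and 5.8S rRNA. All 3 members had negative values and 0 were called by DESeq2 in the authors' deposited table, beside 20.2% of all genes tested. An unadjusted p under 0.05 was held by 1 of the 3, and by 30.6% of all genes tested. Bop1, the member with that p, had a fold change of -0.15 (SE of 0.058, adjusted p of 0.0517) at a mean of 7804, which is just outside the threshold. Pes1 lay at -0.08 (SE of 0.062, adjusted p of 0.392) with a mean of 5006 and Wdr12 also at -0.08 (SE of 0.096, adjusted p of 0.617) with a mean of 747. Their intervals overlap with each other and, for Pes1 and Wdr12, include 0.

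Of 9 other nucleolar factors, mostly of the large subunit, 1 was called positive and 0 negative, beside 9.05% and 11.1% of all genes tested. Nol8, a nucleolar protein with an RNA recognition motif, was called at 0.24 (SE of 0.086, adjusted p of 0.0308) in the authors' deposited table. Its mean of 1281 implies 1387 normalized counts with AA147 and 1175 with vehicle, an increase of 18%. Rrp1 and Rrp1b, related early factors, had similar values of -0.14 (adjusted p of 0.122) and -0.15 (adjusted p of 0.158) in the authors' deposited table. The methyltransferases Nop2 and Rrp8, which modify the 28S rRNA, lay at 0.02 and 0.03, with adjusted p of 0.889 and 0.837. The kinase Nol9 lay at -0.03, Nol12 at -0.05, Rrp15 at -0.08 and Nop16 at -0.09 in the authors' deposited table, all with adjusted p of at least 0.678.

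The abundant nucleolar chaperones differed in value. Ncl, nucleolin, which binds the precursor RNA and ribosomal DNA chromatin, had the highest mean of all members at 39440 normalized counts and a fold change of 0.15 (SE of 0.060, adjusted p of 0.0501) in the authors' deposited table. It missed the threshold by the smallest margin of all members. Npm1, nucleophosmin, which organises the outer layer of the nucleolus, lay at -0.02 (SE of 0.063, adjusted p of 0.889) with a mean of 7851. Other places in the genome match 77% of the Npm1 transcript in 5 stretches, so its count is uncertain. The interval of Ncl, from 0.04 to 0.27, overlaps that of Npm1, from -0.14 to 0.10.

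Shared sequence limits how far some counts belong to 1 gene. Exons on the other strand cover 25.5% of the transcript of Dkc1, 27.7% of Nop56, 31.3% of Nop9 and 38.7% of Nol7. Stretches elsewhere in the genome match 34.3% of Nop56, 37.7% of Nop58, 43.7% of Rrp7a, 45.9% of Pes1 and 48.5% of Wdr12. Among the 5 called members, 0 had such a match, and the largest overlap was the 3.58% of Imp4.

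Some members had an SE above that of genes with a similar mean. Against the 200 genes nearest in mean, the SE was 1.38 times the median for Utp20, 1.34 times for Polr1a, 1.28 times for Nop16 and 1.25 times for Heatr1. The canonical transcripts of Utp20, Polr1a and Heatr1 are 8854, 9240 and 6781 bases long in GENCODE M39, and that of Nop16 is 1756 bases. The median ratio of the nucleolar members was 1.01, and their median length of 3476 bases was close to the 3540 of genes in the same range of means. Transcript length did not go with a larger SE in every case, since Wdr12 with 10012 bases had a ratio of 0.955. The part of length in these SEs was not tested.

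**Figure D3:**
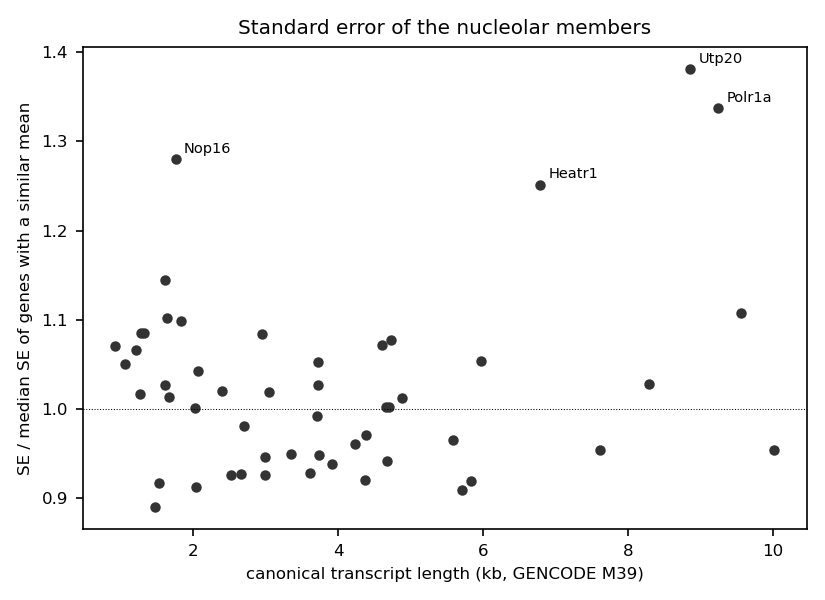
SE of the log2 fold change divided by the median SE of the 200 genes nearest in mean, against the length of the canonical transcript in kb, for the 52 nucleolar members. The points named are the 4 with a ratio of at least 1.2: Utp20, Polr1a, Nop16 and Heatr1.

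Genes of the same pathway that the rule left out were read from 4 lists by role. Of 104 such genes in the authors' deposited table, 8 were called positive and 5 negative, 12.5% beside 20.2% of all genes tested, and their median log2 fold change was 0.01. The polymerase I list had 13 genes, with 1 called, Znrd1, a small subunit of the enzyme, at -0.22 (adjusted p of 0.044). The promoter selectivity factors Taf1a, Taf1b, Taf1c and Taf1d lay between -0.08 and 0.11 and were not called. In the snoRNP list 1 of 12 genes was called, the H/ACA assembly factor Shq1, a chaperone of dyskerin, at -0.37 (SE of 0.102, adjusted p of 0.00287) in the authors' deposited table. The other H/ACA assembly factor, Naf1, lay at -0.09 (adjusted p of 0.526).

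Among 36 further small subunit factors, 2 were called positive and 3 negative, 13.9% in all, beside 20.2% of all genes tested. Nat10, which acetylates 18S rRNA, had the lowest adjusted p of these at -0.36 (SE of 0.067, adjusted p of 1.8e-06) in the authors' deposited table. The methyltransferase Emg1 lay at -0.20 (adjusted p of 0.0272) and Noc4l at -0.18 (adjusted p of 0.0294), while Cirh1a, the older name of Utp4, lay at 0.19 (adjusted p of 0.033) and Krr1 at 0.24 (adjusted p of 0.0386). Of 43 large subunit factors 6 were called positive and 0 negative, 14% in all. Of all genes tested, 9.05% were called positive and 11.1% negative, and the difference was not tested. Sbds, which helps to release Eif6 from the new large subunit and is mutated in Shwachman-Diamond syndrome, had the largest value at 0.45 (SE of 0.089, adjusted p of 8.14e-06) in the authors' deposited table. Zfp622 at 0.28 (adjusted p of 0.00267) and Rpf1 at 0.25 (adjusted p of 0.00468) followed. Eif6 itself lay at -0.07 (adjusted p of 0.492).

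Polymerase III and the MYC network were read as neighbours of the pathway, and both lists are short. Of 10 polymerase III subunits 1 was called, beside 20.2% of all genes tested. This was Polr3b, the second largest subunit of the enzyme, at 0.28 (SE of 0.078, adjusted p of 0.00288) in the authors' deposited table, and the median was 0.08. Of 9 MYC network genes 2 were called positive and 1 negative, beside 9.05% and 11.1% of all genes tested, with a median of 0.19. Nothing particular to either list can be read from such counts. Myc lay at 0.25 (SE of 0.072, adjusted p of 0.00484) at a mean of 4494 in the authors' deposited table, an increase of 18.8%. The MYC antagonists Mxi1 and Mxd4 lay at 0.28 (adjusted p of 0.0441) and -0.32 (adjusted p of 0.00307). Ncl, Npm1 and Fbl, known as MYC targets, lay at 0.15, -0.02 and -0.02, and none of them was called. Ncl missed the threshold narrowly, at an adjusted p of 0.0501, and the counts of Npm1 and Fbl are uncertain, as given above. They are a few picked genes: among all 52 nucleolar members, 3 were called positive and 2 negative. Whether the members followed Myc was not tested.

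**Figure D4:**
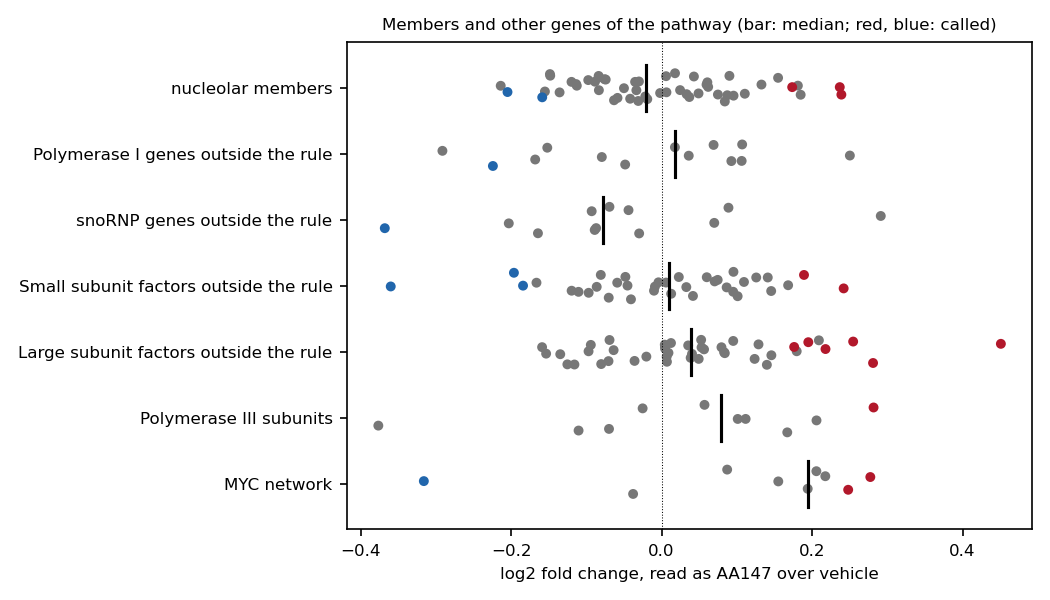
Log2 fold change of the 52 nucleolar members and of the genes of 6 lists outside the rule, 1 point per gene, with the median as a bar, from the authors' deposited table. Red and blue mark genes called positive and negative; the medians run from -0.08 for the snoRNP list to 0.19 for the MYC network, and the members' median is -0.02.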

How the data were processed

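The 6 libraries, 3 per group, were non-stranded mRNA libraries per the labels' protocols. DESeq2 and genome build mm9 are named in the submitters' processing notes. The aligner, counter, annotation and model are not given in the sources used here. For each gene the authors deposited a mean normalized count, a signal scaled to an average library, a log2 fold change with its SE, a score that equals their ratio within 3.06e-07, and the p-value with its adjusted form, per the file headers. The adjusted p-values covered 13597 genes, and the other 2875 had a mean of at most 8.41. Depth per library is unknown, and the means sum to 30768012.

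From these values, 95% intervals (fold change ± normal quantile times SE), implied group means (from the mean and fold change, taken at face value) and counts were computed. The members and lists were chosen with earlier results of these data known. Every member is accounted for. Full statistics are given for called members, polymerase I subunits and snoRNP cores, and of each list outside the rule at most 3 called genes per direction with the smallest adjusted p; other genes named were chosen after their values were seen. Transcript length, overlap with exons of other genes and matches elsewhere in the genome (at least 200 bases at 95% identity or more) came from GENCODE M39 on GRCm39, a later build than that of the counts, so only these properties are used. The code was tested on simulated data. Tools were Python 3.11.15, pandas 2.3.3, SciPy 1.17.1, statsmodels 0.14.6, matplotlib 3.10.9 and minimap2 2.31.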

Additional observations from a re-analysis of the deposited data

How the results depend on the processing

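No paired analysis was possible because the deposited values are not split by library, and leaving out each replicate, other normalizations and a refit were not run for the same reason. Members called positive and negative numbered 3 and 2 as deposited. They were 1 and 0 at an adjusted p under 0.01, with Imp4 left, and 0 and 0 under a Bonferroni adjustment or with a fold limit of 0.5 on the log2 scale, each stricter by construction. Over all genes these 3 settings gave 1818, 774 and 796 calls in place of 2741. With the adjustment over genes with a mean of at least 100, Ncl and Bop1 were added, giving 4 and 3. Centring on the median of abundant genes, a shift of 0.013, gave 2 and 5: Utp6 was lost (adjusted p of 0.0504) and Bop1, Imp3 and Polr1c were added. Subtracting a robust trend on length, GC content and mean gave 3 and 1, namely Imp4, Ncl and Rrp7a, and Nop10; Nol8 moved to 0.16, Utp6 to 0.14 and Tcof1 to -0.11, and none of these 3 was called. The cause was not tested. Over all genes the limit on the mean, the centring and the trend gave 2643, 2708 and 2386 calls. Of these calls 45.5%, 40.3% and 43.8% were positive, beside 44.9% as deposited. Imp4 and Nop10 were called in every setting except those above that left 0 calls and, for Nop10, an adjusted p under 0.01. Signs changed for 2 of 53 members under centring, Ubtf and Utp20, and for 2 of 52 after the trend, Utp20 and Fbl, all within 0.022 of 0 as deposited. The median of the members stayed between -0.03 and -0.01. Depth per library is unknown, and its share in the SEs, which set the smallest change that could be called, was not tested.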
